A study of Homo sapiens with 6 samples.

Results

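The sestrin and forkhead box O (FOXO) genes, with 4 genes widely used as readouts of FOXO activity or of quiescence, were examined in FUJIOKA, a cell line of human acute myeloid leukaemia. The 10 genes are SESN1, SESN2, SESN3, FOXO1, FOXO3, FOXO4, TXNIP, KLF2, PIK3IP1 and CCNG2, taken by gene symbol from the 63236 genes of the deposited table. They were chosen around a large difference of SESN3 in the same contrast as is described here, so their differences between the groups are given as a description and were not tested. RNA was sequenced from 3 libraries of cells with a scrambled, non-targeting shRNA (shNEG) and 3 libraries of cells with a shRNA against SPINK2 (shSPINK2), a Kazal-type serine protease inhibitor. In both groups the shRNA was carried by a lentiviral vector in puromycin-selected cells and switched on by doxycycline, so the control cells also received the drug and the vector. How long the cells were on doxycycline before RNA extraction is not given in the sources used here. The labels do not say whether the replicates were separate cultures, so that the spread between libraries may be technical. The p-values given below rest on this spread and may not cover variation between separate cultures. The sample labels name 2 SPINK2 shRNAs and the study's methods 1, and no label says which of them a shSPINK2 library carries.

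Sestrins are stress-inducible proteins that restrain the growth kinase complex mTORC1. SESN1 and SESN2 are known targets of p53, SESN2 is also induced by the amino acid response factor ATF4, and SESN3 is a known target of FOXO factors. FOXO proteins are transcription factors that AKT phosphorylates and keeps out of the nucleus when growth factor signalling through phosphoinositide 3-kinase (PI3K) is strong. When that signal is weak they enter the nucleus and activate genes of cell cycle exit, oxidative stress defence and autophagy. In blood cells they are known for maintaining quiescent stem cells and resting lymphocytes. Much of this regulation acts on the protein, which was not measured here.

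The deposited table lists 1 mean over the 6 libraries per gene and no value per library. Whole reads per library were therefore solved from the digits of that mean, and the authors' listed fold change and its standard error decided which solution was kept and which libraries formed each group. The ratio between the groups thus follows the authors' comparison by construction and is no independent measurement of it. What the solving adds is the value of each library and the spread within the groups. All 10 genes had exactly 1 solution. Libraries are named by letters, shNEG A to C and shSPINK2 D to F, which do not correspond to the replicate numbers of the labels. Normalized reads are reads divided by the library's size factor, and log2 differences are shSPINK2 minus shNEG on the scale of log2(normalized reads + 0.5). Solved reads amounted to between 30077707 and 30956398 per library, and the size factors differed by at most 4.85%.

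The targeted gene was examined first. SPINK2 had 56, 63 and 53 reads in shNEG against 7, 9 and 6 in shSPINK2. The log2 difference was -2.91 (SE 0.27, limma adjusted p = 1.53e-11), and no shSPINK2 library reached the lowest shNEG library. Of 10 myeloid marker genes, 9 had a mean of at least 10 normalized reads, led by LYZ with an authors' mean of 44097, whereas KIT had a mean of 0.666. Erythroid markers had means of at most 1.49. NKG7, a granule gene of cytotoxic lymphocytes, had a mean of 5217, while the T cell receptor genes CD3D, CD3E and CD3G had means of at most 4.29. The summed T and NK cell marker level, which is nearly all NKG7, lay between 4155 and 4199 normalized reads in shNEG and between 5922 and 6566 in shSPINK2. Summed B cell markers were also higher, at 174 to 183 in shNEG and 223 to 281 in shSPINK2. The sum of the 7 myeloid markers with solved reads was higher too, at 35020 to 36218 and 39636 to 40887. It leaves out LYZ and CEBPA, which had no solved reads, and its genes did not all rise. MPO fell from 2169, 2030 and 2090 reads to 1587, 1588 and 1644 (log2 difference -0.40, limma adjusted p = 1.57e-08). Of the megakaryocyte markers only ITGA2B had solved reads, with 23, 15 and 23 in shNEG and 24, 39 and 23 in shSPINK2. After normalization it lay at 15 to 23 and 23.2 to 38.6, a narrow gap, and it did not pass the test (limma adjusted p = 0.142). The erythroid and epithelial levels, each also from 1 gene with solved reads, overlapped. The part of these markers in the results below was not tested. In bulk RNA, fewer cells expressing a gene and less RNA per cell cannot be told apart.

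The 21-base target sequences of both SPINK2 shRNAs are shown because they define the groups. Each occurs whole in the coding sequence of the canonical SPINK2 transcript (chromosome 4, minus strand, GRCh38) and crosses an exon junction, and none of the 10 genes holds either of them whole. The capitals in shRNA2 mark a 7-base word, GCTCTCA, that starts at its base 10.
shRNA1: tcagggaaggtggtcataata
shRNA2: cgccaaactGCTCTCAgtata

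This word was searched on the sense strand of canonical transcripts, because earlier results of these data had singled it out, and it occurs in 4149 of 19701 protein-coding transcripts (21.1%). It occurs once in 5 of the 10 genes, in the 3′ UTR of SESN1, FOXO3 and CCNG2 and in the coding sequence of FOXO1 and TXNIP. The share over all transcripts was not matched for transcript length, and the word came from earlier results of these data, so nothing is read from this count. The sites are shown with 10 bases on each side of the word. The capitals mark the run of letters shared with shRNA2, of 9 bases in SESN1, 10 in FOXO3, 9 in CCNG2 and 7 in both FOXO1 and TXNIP. Runs of such length are not particular to these sites or genes. Anywhere in the transcript, the longest run shared with shRNA2 was between 6 and 10 bases over the 10 genes, with 9 in TXNIP and 8 in SESN3, FOXO1 and KLF2. The longest run shared with shRNA1 was also between 6 and 10 bases, with 10 in CCNG2 and 9 in SESN1, FOXO4 and TXNIP.
SESN1: agagggctCTGCTCTCAtgaatgggat
FOXO3: tgccaaatCTGCTCTCAGcaagtggac
CCNG2: cattaagtaTGCTCTCAGagactggta
FOXO1: gcaagccctgGCTCTCAcagcaatgat
TXNIP: gacatggatgGCTCTCAagacagccct

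These sites lie at chr6:108984476-108984502 (minus strand), chr6:108679865-108679891 (plus strand), chr4:77167413-77167439 (plus strand), chr13:40560576-40560602 (minus strand) and chr1:145994070-145994096 (minus strand), in that order, on GRCh38. Of the 3 genes with the word in the 3′ UTR, FOXO3 was lower and SESN1 and CCNG2 were higher in shSPINK2, as given below. SESN3, SESN2, FOXO4, KLF2 and PIK3IP1 do not hold these letters in the transcripts searched.

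SESN3 (ENSG00000149212.11, chromosome 11 from 95165513 to 95232541, minus strand, GRCh38), a sestrin known as a FOXO target, had 5122, 5226 and 5098 reads in shNEG and 15721, 17793 and 14814 reads in shSPINK2. Every shSPINK2 library lay far above every shNEG library, and library E stood above D and F. The normalized level was 5145 ± 67.6 reads in shNEG and 15959 ± 1450 in shSPINK2 (SD, n = 3 each), a log2 difference of 1.63 or 3.09-fold. This is the value on which the genes were chosen. Among the 15980 genes in the fit 40 had a larger log2 difference, and 1 of these had a mean of at least 1000 normalized reads. SESN3 shares 98 exon bases with LNCRNA-IUR, a noncoding gene on the opposite strand, and whether the counting used strand is not given in the sources used here. LNCRNA-IUR had between 191 and 219 reads in shNEG and between 220 and 233 in shSPINK2, far fewer than SESN3 (log2 difference 0.15, limma adjusted p = 0.169).

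SESN1 (ENSG00000080546.13, chromosome 6 from 108984309 to 109094846, minus strand), a p53 target, had 764, 738 and 769 reads in shNEG and 1242, 1219 and 1129 reads in shSPINK2. The groups did not overlap, and the normalized level was 756 ± 16.8 in shNEG and 1185 ± 34.3 in shSPINK2 (SD, n = 3 each), a log2 difference of 0.65. SESN1 shares 363 exon bases with a noncoding gene on the opposite strand that had an authors' mean of 2.16. SESN2 (ENSG00000130766.4, chromosome 1 from 28259518 to 28282491, plus strand), the sestrin that senses leucine for mTORC1, had 867, 841 and 871 reads in shNEG and 1223, 1137 and 1174 reads in shSPINK2. Its groups did not overlap either, and the log2 difference of 0.44 was the smallest of the 3 sestrins.

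**Figure D1:**
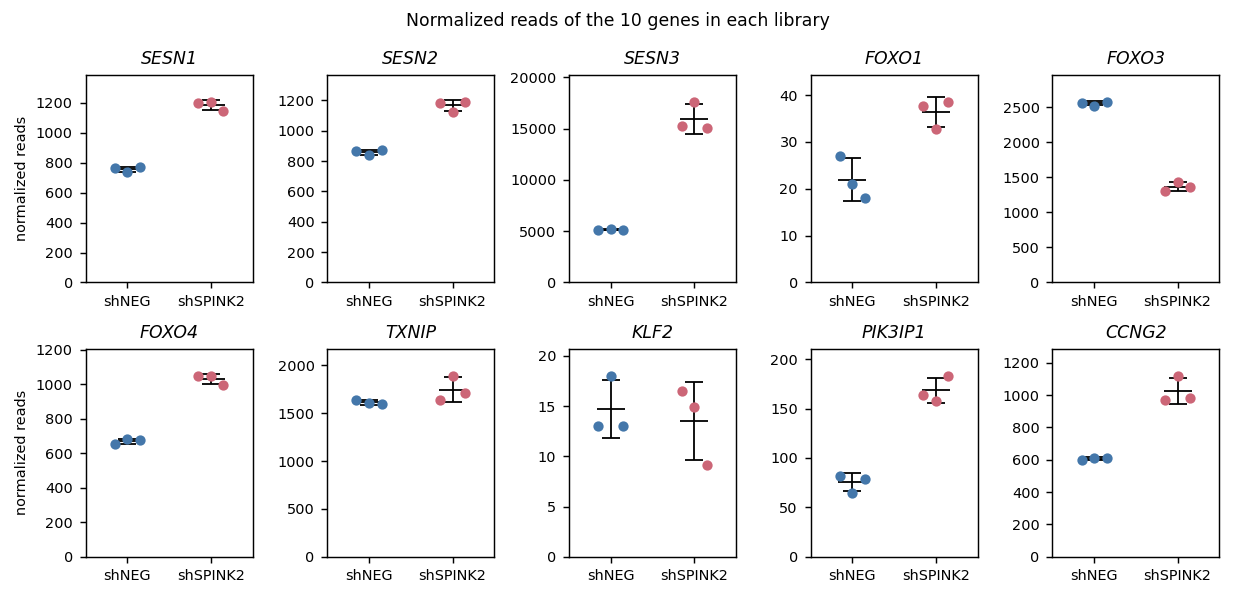
Normalized reads (vertical axes, each starting at 0) of the 10 genes in the 3 shNEG (blue) and 3 shSPINK2 (red) libraries; points are libraries, and black bars are the group mean with its SD. The groups are apart in 8 genes, with FOXO3 lower and 7 genes higher in shSPINK2, and they overlap for TXNIP and KLF2.

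Because transcripts differ in length, levels of different genes are compared per kilobase of annotated exon. In shNEG, SESN3 had 486 normalized reads per kb, SESN2 248 and SESN1 104, and the order was the same in shSPINK2, with 1510, 337 and 163. These neighbours were apart by more than their spread in both groups. SESN3 held 58.0% ± 0.812 of the summed sestrin level per kb in shNEG and 75.0% ± 1.91 in shSPINK2 (SD, n = 3 each). The share of SESN2 was 29.6% ± 0.552 and 16.8% ± 1.54, and that of SESN1 was 12.4% ± 0.261 and 8.13% ± 0.402. The lower shares of SESN1 and SESN2 thus accompanied higher levels of both genes.

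FOXO3 (ENSG00000118689.14, chromosome 6 from 108559835 to 108684774, plus strand) had 2572, 2528 and 2580 reads in shNEG and 1346, 1454 and 1342 reads in shSPINK2. It was the only one of the 10 genes that was lower in every shSPINK2 library than in every shNEG library. The normalized level was 2558 ± 28.9 in shNEG and 1368 ± 69.0 in shSPINK2 (SD, n = 3 each), a log2 difference of -0.90 or 46.5% lower. FOXO3B, a near-identical copy of FOXO3 with which reads can be shared, had between 71 and 74 reads in shNEG and between 56 and 63 in shSPINK2 (log2 difference -0.27, limma adjusted p = 0.137), so that the division of reads between the copies is uncertain. The reads of FOXO3B were few beside those of FOXO3.

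FOXO4 (ENSG00000184481.16, chromosome X from 71095851 to 71103532, plus strand) had 657, 682 and 673 reads in shNEG and 1082, 1058 and 982 reads in shSPINK2. The groups did not overlap, and the log2 difference of 0.62 was opposite in sign to that of FOXO3. FOXO1 (ENSG00000150907.7, chromosome 13 from 40555667 to 40666641, minus strand), the major FOXO factor of lymphocytes, was low, with 27, 21 and 18 reads in shNEG and 39, 33 and 38 reads in shSPINK2. These groups did not overlap (log2 difference 0.73), but the closest pair of libraries differed by only 0.28 on the log2 scale. FOXO1 shares 1352 exon bases with a noncoding gene on the same strand (ENSG00000288542). That gene had an authors' mean under 1 or was not in the deposited table. If it was included in the counting, reads in shared bases may not have been assigned to either gene. The level of FOXO1 and its share of the FOXO family are therefore uncertain.

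Per kb of exon, FOXO3 led FOXO4 in shNEG, with 334 against 177 normalized reads, and FOXO4 led FOXO3 in shSPINK2, with 272 against 178. The ratio of FOXO4 to FOXO3 per kb was 0.517, 0.546 and 0.528 in shNEG and 1.63, 1.47 and 1.48 in shSPINK2. The order of the 2 genes per kb was therefore the reverse in every shSPINK2 library of what it was in every shNEG library. In reads not divided by length, FOXO3 stayed above FOXO4 in every library. The reversal thus depends on the annotated exon lengths, 7.67 kb for FOXO3 and 3.79 kb for FOXO4. FOXO3 held 64.9% ± 0.585 of the summed level of FOXO1, FOXO3 and FOXO4 per kb in shNEG and 39.1% ± 1.33 in shSPINK2 (SD, n = 3 each). FOXO1 contributed 0.718% ± 0.152 and 1.34% ± 0.15.

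**Figure D2:**
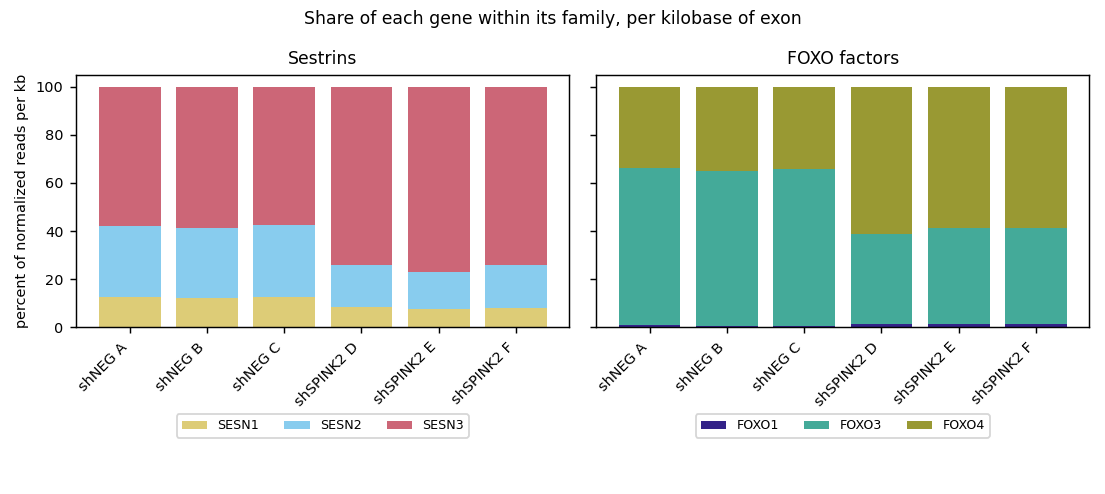
Share of each gene in the summed normalized reads per kilobase of its family (vertical axis, percent) in each of the 6 libraries, for sestrins on the left and FOXO factors on the right. SESN3 takes 58.0% of the sestrin level in shNEG and 75.0% in shSPINK2 on average, and FOXO4 takes 34.4% and 59.6% of the FOXO level.

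FOXO6, the remaining FOXO gene, is no member of the set. It had 75, 63 and 67 reads in shNEG and 39, 55 and 63 reads in shSPINK2. The libraries overlapped in reads, and the log2 difference was -0.42 (limma adjusted p = 0.0434).

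Among the 4 readout genes, the PI3K inhibitor gene PIK3IP1 and the cyclin gene CCNG2 were higher in shSPINK2, whereas TXNIP and KLF2 overlapped between the groups. PIK3IP1 (ENSG00000100100.12, chromosome 22 from 31281594 to 31292534, minus strand), which encodes a membrane protein that restrains PI3K, had 82, 65 and 79 reads in shNEG and 169, 159 and 180 reads in shSPINK2. Every shSPINK2 library was far above every shNEG library, and the log2 difference of 1.16 or 2.23-fold was second to that of SESN3 among the 10 genes. PIK3IP1 shares 36 exon bases with a noncoding gene on the opposite strand that had an authors' mean of 4.62. CCNG2 (ENSG00000138764.14, chromosome 4 from 77157207 to 77433388, plus strand), an unconventional cyclin linked to cell cycle arrest, had 598, 609 and 611 reads in shNEG and 1002, 1129 and 970 reads in shSPINK2. The log2 difference was 0.75 with no overlap, and library E was the highest, as it was for SESN3.

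TXNIP (ENSG00000265972.5, chromosome 1 from 145992435 to 145996579, minus strand), an arrestin-like protein that binds thioredoxin and limits glucose uptake, had 1646, 1609 and 1590 reads in shNEG and 1689, 1908 and 1685 reads in shSPINK2. After normalization library D lay within the shNEG range, at 1635 normalized reads, while E reached 1890. The log2 difference was 0.11. The overlap of TXNIP rests on library D and on shNEG A, and it was lost when either was left out and under scaling by total reads. KLF2 (ENSG00000127528.5, chromosome 19 from 16324826 to 16328685, plus strand), a zinc finger factor of lymphocyte quiescence, had 13, 18 and 13 reads in shNEG and 17, 15 and 9 reads in shSPINK2. With so few reads a difference between the groups was not detectable at this depth (log2 difference -0.14), and leaving out single libraries moved the difference between -0.30 and 0.11.

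Across the 10 genes, 7 were higher and 1 was lower in shSPINK2 with no overlap between libraries. The background is large, since 30.6% of the 15980 genes in the fit were higher without overlap and 31.8% were lower. Because the genes were chosen on this contrast, nothing is read from their counts or from their median. Their median log2 difference was 0.64, against 0.0 for all genes in the fit. A log2 difference over 1 was found for 2 of the 10 genes, SESN3 and PIK3IP1, and for 1.86% of all genes in the fit. Within shSPINK2, 6 of the 10 genes were highest in library E, as were 41.4% of the genes whose mean was 100 or more.

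**Figure D3:**
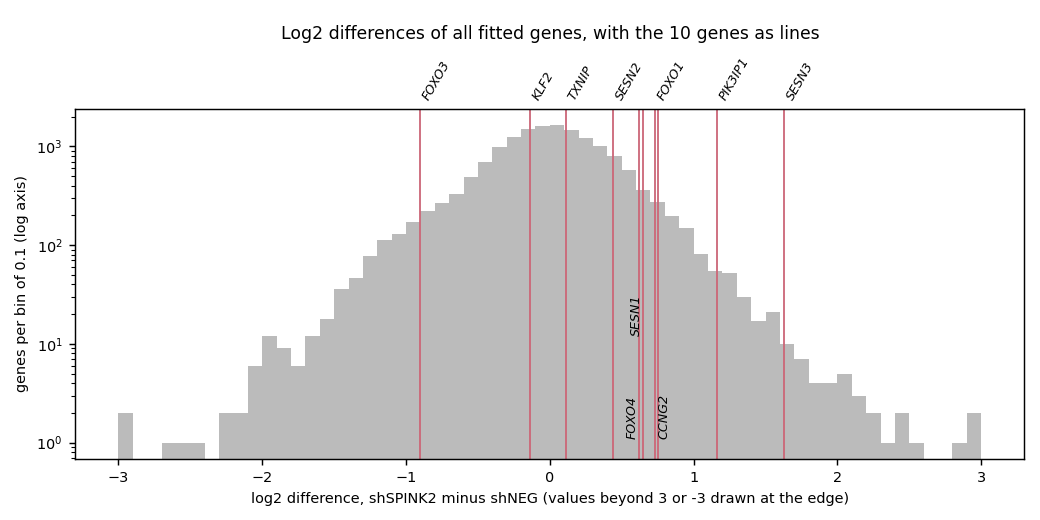
Number of fitted genes (vertical log axis) by log2 difference, shSPINK2 minus shNEG (horizontal axis, bins of 0.1), with the 10 genes as red lines. The genes are spread from FOXO3 at -0.90 to SESN3 at 1.63, and KLF2 and TXNIP lie near the centre of the distribution.

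Promoters of all 10 genes, from 250 bases before to 50 bases after the start, were read from RefSeq (GRCh38.p14) to see where the FOXO letters GTAAACA occur on either strand. The motif was found in 3 of 17 promoters of the set and in 1202 of 35116 RefSeq promoters (3.42%). The 3 sites are shown with 10 bases on each side, in the direction of the gene, with the motif in capitals. Their first motif base lies at position -124 from the start for TXNIP, 17 for PIK3IP1 and 24 for FOXO4.
TXNIP: cgggctcctgGTAAACAaggaccgggc
PIK3IP1: aaagagaggcTGTTTACcagaacagca
FOXO4: ccggcgagtgGTAAACAgagacgtcag

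These windows lie at chr1:145996687-145996713, chr22:31292456-31292482 and chrX:71095864-71095890. SESN3 and CCNG2 do not hold these letters in the promoter windows searched, and a match is a description of sequence only.

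The wider pathway was described through 7 lists of related genes, with 129 of 154 distinct genes in the fit. In the limma fit, 28.6% of all genes rose and 29.9% fell at an adjusted p under 0.05, and the counts below are to be read against these shares. FOXO regulators, which are PI3K and AKT pathway genes, 14-3-3 proteins, deacetylases, ubiquitin ligases and coactivators, had 36 of 40 genes in the fit. Of these 9 rose, 19 fell and 8 did not pass the test, with a median log2 difference of -0.21. STK4, a kinase that phosphorylates FOXO factors, fell from 4286, 4365 and 4399 reads to 1625, 1712 and 1624 (log2 difference -1.41, SE 0.05, limma adjusted p = 1.73e-23). SKP2, an ubiquitin ligase subunit, also fell (log2 difference -0.69). The PI3K regulatory subunit genes PIK3R6 and PIK3R3 rose by 0.79 and 0.58 on the log2 scale.

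Of other FOXO target genes, 30 of 40 were in the fit, and 14 rose, 5 fell and 11 did not pass the test, with a median of 0.07. CAT, which encodes catalase, rose from between 26461 and 27916 reads in shNEG to between 49716 and 51377 in shSPINK2 (log2 difference 0.89, limma adjusted p = 4.62e-19). FBXO32, an ubiquitin ligase gene of muscle atrophy, rose from 64, 72 and 56 reads to 128, 149 and 139 (log2 difference 1.1). The mitophagy receptor gene BNIP3L fell from 2108, 2085 and 2081 reads to 737, 834 and 753 (log2 difference -1.45), and the CDK inhibitor gene CDKN1A fell from 84, 70 and 87 to 40, 32 and 33 (log2 difference -1.20). Genes of this list thus moved in both directions.

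The sestrin partners in amino acid sensing, the GATOR complexes with CASTOR, had 14 of 15 genes in the fit, of which 6 rose, 5 fell and 3 did not pass the test (median 0.07). The arginine sensor gene CASTOR1 rose from 13, 10 and 13 reads to 35, 31 and 18 (log2 difference 1.13, limma adjusted p = 0.00131), and its relative CASTOR2 fell (log2 difference -0.48, limma adjusted p = 0.0257). The GATOR2 genes WDR59 and MIOS moved apart, with log2 differences of 0.45 and -0.33. Among p53 targets other than SESN1 and SESN2, 22 of 24 genes were in the fit, and 4 rose, 10 fell and 8 did not pass the test (median -0.15). TP53INP1, a p53-inducible stress protein gene, rose from 86, 95 and 83 reads to 296, 323 and 276 (log2 difference 1.74, limma adjusted p = 3.46e-16), and the antiproliferative gene BTG2 rose by 0.66. CDKN1A, which is in this list too, and the DNA repair gene DDB2 (log2 difference -0.62) fell.

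Of the relatives and partners of TXNIP, 13 of 15 were in the fit, with 6 that rose, 4 that fell and 3 that did not pass the test (median 0.09). The arrestin-like gene ARRDC3 and the mitochondrial thioredoxin gene TXN2 rose by 0.56 and 0.53 on the log2 scale, while ARRDC1 and MLX, a partner of the glucose sensor MondoA, fell (log2 differences -0.39 and -0.27). In the KLF family 10 of 15 genes were in the fit, and 0 rose, 5 fell and 5 did not pass the test (median -0.18), with KLF16 and KLF10 at -0.59 and -0.43. Of the cyclin relatives of CCNG2, 10 of 12 were in the fit, and 0 rose, 4 fell and 6 did not pass the test (median -0.08), with CCNY at -0.31 and CCNQ at -0.28. CCNG2 itself had a log2 difference of 0.75.

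**Figure D4:**
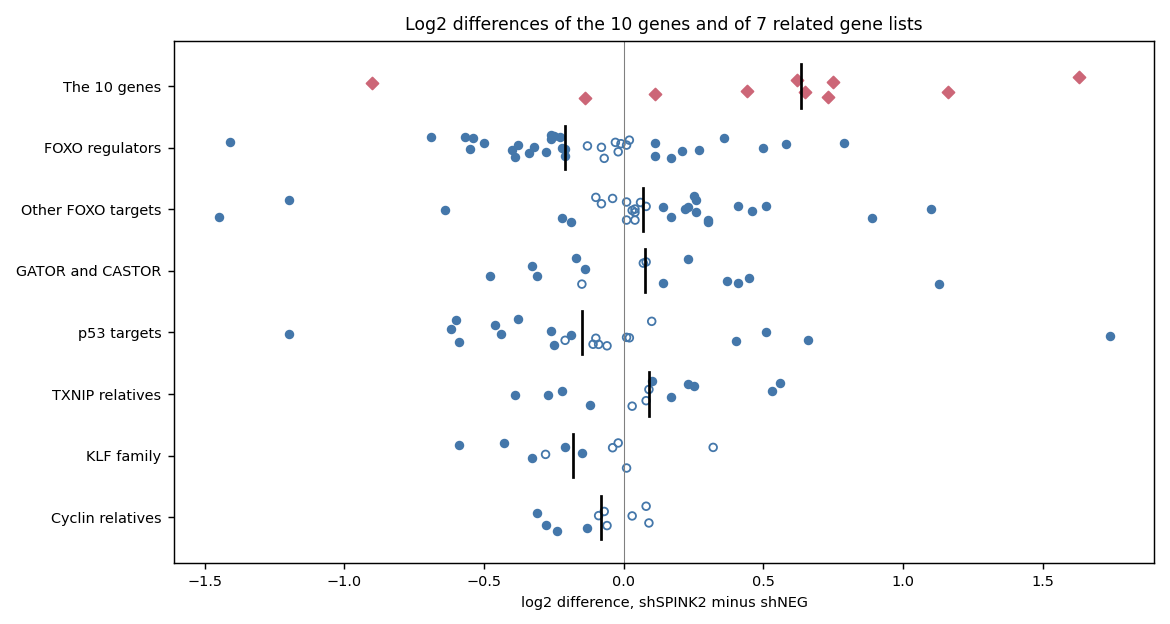
Log2 differences, shSPINK2 minus shNEG (horizontal axis), of the 10 genes (diamonds, not tested) and of the fitted genes of 7 related lists, with filled circles for genes past the limma threshold, open circles for the others, and black lines for medians; the vertical position within a row has no meaning. The median of the 10 genes, which were chosen on this contrast, is 0.64, and the list medians lie between -0.21 and 0.09.

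The genes whose profile was most like that of SESN3 were sought among 11305 genes whose mean was 100 or more, by the Euclidean distance of centred log2 values over the 6 libraries. The nearest was CAMSAP3, a microtubule minus-end binding protein gene, at a distance of 0.152, with 148, 148 and 145 reads in shNEG and 453, 458 and 434 in shSPINK2. TP53INP1 followed at 0.185, the glycolytic gene ALDOC at 0.202, the extracellular matrix gene TNR at 0.206 and the myeloid lectin gene CLEC12A at 0.232. Their log2 differences lay between 1.48 and 1.74. With 6 libraries in 2 groups, this likeness reflects mainly the size of the difference between the groups.

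**Figure D5:**
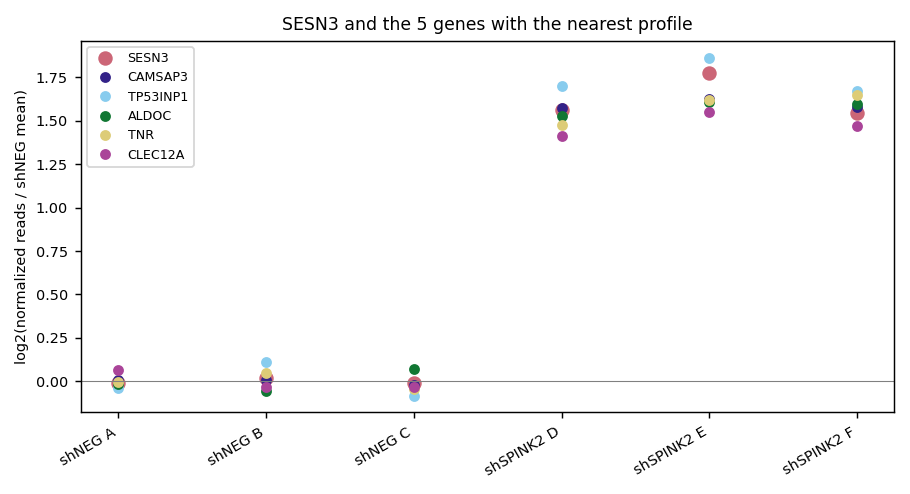
Log2 ratio of normalized reads to the shNEG mean (vertical axis) in each of the 6 libraries for SESN3 and the 5 genes nearest to it. The shNEG libraries lie near 0 and the shSPINK2 libraries near the log2 differences of 1.48 to 1.74, and SESN3 is higher in library E than in D and F.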

How the data were processed

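Libraries of FUJIOKA RNA were made by the authors with an mRNA library kit. The authors used STAR to align reads to GRCh38 and featureCounts to count them per gene, and the authors' comparison of the groups was made with DESeq2. The submitters' processing notes name STAR 2.7.11 and DESeq2 1.40.0. The annotation release and the strandedness of counting are not given in the sources used here. The deposited table holds 1 signal per gene, the authors' mean over 6 libraries of counts divided by size factors. It also holds columns of the authors' own comparison of both groups, which are a log2 fold change with its standard error, a test statistic, p-values and a status.

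Genes with 1 read in 1 library gave the 6 size factors. Whole reads per library were then solved from the deposited mean of up to 15 digits by lattice reduction. The authors' log2 fold changes and standard errors were used in this step alone, to assign each size factor to a group and to choose the solution whose 2-group fit returned the listed fold change within 5e-14. They are not printed. The solved reads therefore carry the authors' group difference by construction, and the group of each library was taken from that comparison and not from a label. Of 16131 genes whose mean was 10 or more, 15980 (99.06%) had exactly 1 solution, 0 had more, and 151 with means of 14446.6 or above had none and were not fitted. Solved genes hold 79.1% of the reads in the summed mean. No molecular identifiers are described, so reads cover counting error only. The solver and the fit were tested on simulated data.

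The fit was limma (3.58.1, R 4.3.3; eBayes with trend, two-sided) on log2(normalized reads + 0.5) for genes with a mean of at least 10, with Benjamini-Hochberg adjustment over all 15980 genes and a threshold of 0.05. Members and lists were chosen with earlier results of these data known. Genes named are the members, SPINK2, the 2 genes with the largest and 2 with the lowest difference among those called in each list, and the 5 genes nearest to SESN3. LNCRNA-IUR, FOXO3B, FOXO6 and the markers named were added after their values were seen. Alternatives were other pseudocounts, minimum means, scaling by total reads, voom weights, stricter thresholds and leaving out each library. Positions, exon lengths and transcripts are those of GENCODE release 44 (GRCh38), matched by Ensembl ID. Protein sequences were not used here. Python 3.11.15, numpy 2.4.6, pandas 2.3.3 and matplotlib 3.10.9 were used.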

Additional observations from a re-analysis of the deposited data

How the results depend on the processing

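No paired analysis was possible because the recovered libraries carry no replicate numbers and cannot be matched to the numbered samples of the labels. With a further threshold of 1 on the absolute log2 difference, 296 genes rose and 474 fell in place of 4565 and 4779, and 3 list genes rose and 3 fell in place of 39 and 49. Under the other pseudocounts, minimum means and thresholds, scaling by total reads and voom weights, these counts stayed within 1.5 times their value. Leaving out each library in turn gave between 4117 and 4441 genes that rose and between 4332 and 4735 that fell, and in the lists between 34 and 42 that rose and between 44 and 52 that fell. The count of the 10 genes whose groups do not overlap was 8, and it ranged from 8 to 9 when a library was left out and was 9 under scaling by total reads. Under a pseudocount of 5, scaling by total reads and the ratio of summed reads, all 10 differences moved by under 1 pooled within-group SD. That limit says nothing about leaving out a library, because omitting 1 of 3 cannot move a difference by 1 pooled SD. KLF2 changed sign when single libraries were left out, with differences from -0.30 to 0.11. Across single omitted libraries SESN3 ranged from 1.56 to 1.67, PIK3IP1 from 1.06 to 1.22, FOXO3 from -0.94 to -0.87 and FOXO1, with few reads, from 0.60 to 0.88. Depth limits KLF2 and FOXO1, and 151 genes of high mean without a solution were not fitted.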
